A study of Caenorhabditis elegans with 16 samples.

Results

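A CRISPR-edited gld-1 mRNA that carries an engineered let-7 site was compared with lin-41, the natural let-7 target of Caenorhabditis elegans, by the miRNAs that each transcript brought along in a pulldown. The comparison rests on 4 of the 16 libraries of the series, 2 of the edited gld-1 transcript (changed specificity) and 2 of endogenous lin-41, which were chosen by the strain and transcript given in the sample titles. In the method, called vIPR, live worms are irradiated with ultraviolet light and biotinylated DNA probes then retrieve a chosen mRNA together with what is attached to it. Small RNAs were sequenced from the elutions, and the values are reads per mature miRNA.

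All libraries came from young adult worms. The lin-41 pulldowns used unmodified N2 worms and probes that tile the lin-41 transcript. The changed specificity pulldowns used a strain edited in N2 by CRISPR, in which the miR-84 site of the gld-1 transcript, located in its 3′ UTR, was changed at bases outside the seed match so that it pairs with let-7, and probes that tile gld-1. The other pulldowns used here as references were gld-1 from N2 with the same gld-1 probes (n = 2), gld-1 with the seed match of that site destroyed (seed destruction, gld-1 probes, n = 2), a gld-1::gfp transgene (strain BS1080, gfp probes, n = 2), a gfp-tagged lin-41 (gfp::lin-41, strain DG3913, gfp probes, n = 1) and the no-target control, in which gfp probes were applied to N2 worms that carry no gfp (n = 3). Changed specificity and lin-41 thus differed in the transcript, in the probes and in the strain, and these cannot be told apart in the comparison itself. The series also holds pulldowns of alg-1 from N2 with alg-1 probes (n = 2). The mRNAs are not in the small RNA files, so retrieval of the targets was not checked here. Nothing in the labels says whether replicates were separate cultures, and p-values therefore measure the spread between libraries.

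A miRNA is loaded into an Argonaute protein and finds its targets mainly through its seed, the short stretch near its 5′ end, while pairing of the remaining bases can decide between members of a family that share a seed. let-7, miR-48, miR-84 and miR-241 are such a family in C. elegans. let-7 drives the transition from larval to adult fates, in large part by repressing lin-41, which encodes a TRIM-NHL RNA-binding protein, through sites in its 3′ UTR. gld-1 encodes a STAR-family RNA-binding protein needed for germ cell differentiation, and its transcript is found in the germline, where lin-41 is also abundant in adults. In the WBcel235 build, both genes are on chromosome I, gld-1 on the plus strand (7695681 to 7698222) and lin-41 on the minus strand (9334800 to 9342496).

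Total reads were 1210517 and 845755 in changed specificity replicates 1 and 2, and 1055420 and 163422 in lin-41 replicates 1 and 2, within a range of 12474 to 2081849 over the series. Without let-7-5p, the reads left for all other miRNAs were 59252 and 93002 in changed specificity and 168653 and 55188 in lin-41. Of the 434 miRNAs listed, 195 had at least 1 read in any of these 4 libraries. The 112 miRNAs with 10 or more reads in 2 or more libraries were tested, and 88 of them were seen in all 4. Replicates differed by far more than counting error, with a chi-square per degree of freedom of 389 between the changed specificity libraries and 398 between the lin-41 libraries. PCR copies could not be told from separate molecules here, so intervals on shares and detection floors (3 reads) reflect only the error of counting. Changed specificity replicate 1 and lin-41 replicate 2 share the library name prefix PD3, lin-41 replicate 1 has the prefix PD2 and changed specificity replicate 2 has none, so values within PD3 are given beside the main results.

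The engineered site and the natural target were both retrieved with let-7-5p as by far their most abundant miRNA. Reads of let-7-5p numbered 1151265 and 752753 in changed specificity and 886767 and 108234 in lin-41, against 5178 and 10099 in unedited gld-1, 11911 and 6322 in seed destruction, and 2619, 2116 and 818 in the control. Its gene is annotated by RefSeq on chromosome X from 14743590 to 14745321. All libraries of the edited gld-1 transcript and of lin-41 held more let-7-5p than any library of the 3 other groups.

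As a share of all miRNA reads, let-7-5p made up 95.1% (95% Wilson interval 95.07 to 95.14%) and 89.0% of the changed specificity libraries. It made up 84.0% (83.95 to 84.09%) and 66.2% of the lin-41 libraries, and 74.1% of the single gfp::lin-41 library. The engineered site therefore gave the higher share in both libraries, with no overlap. The means were 92.1% ± 4.31 (SD, n = 2) and 75.1% ± 12.6 (SD, n = 2), a difference of 16.9 percentage points. The p was 0.333 in an exact permutation test (two-sided), the smallest that 2 libraries against 2 can give. Within prefix PD3 the difference was 28.9 percentage points. In the no-target control the share was between 3.54% and 6.56%.

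**Figure D1:**
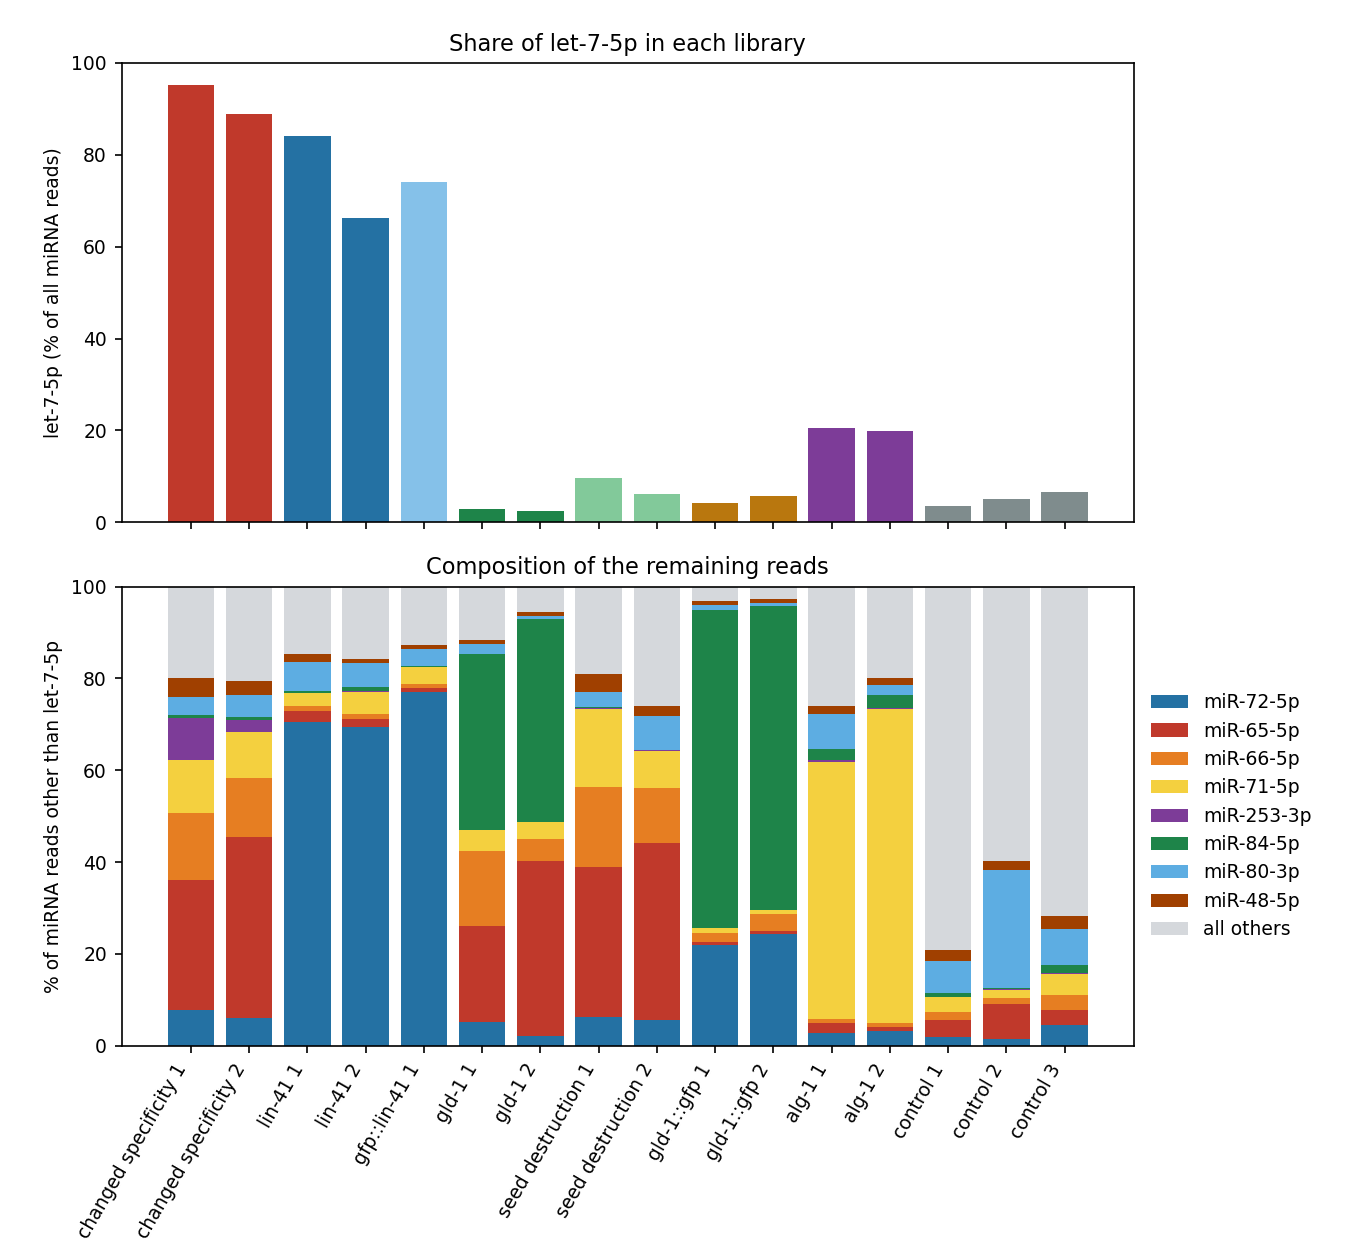
Upper panel, let-7-5p as a percentage of all miRNA reads (y axis) in each of the 16 libraries (x axis, group and replicate), coloured by group; lower panel, percentage of the reads that remain without let-7-5p, stacked for 8 miRNAs and all others. The changed specificity bars stand at 95.1% and 89.0% and the lin-41 bars at 84.0% and 66.2%, while below them miR-72-5p fills 70.5% and 69.4% of lin-41 and only 7.80% and 6.14% of changed specificity.

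The share of let-7-5p depends on what else the library holds, so its level was also compared by other measures. After scaling to the bulk of the miRNAs with trimmed mean of M values (TMM) factors, let-7-5p did not differ detectably between the transcripts, at a log2 fold change of 1.00 (SE 0.63, 95% interval -0.30 to 2.31, adjusted p = 0.342 by edgeR's quasi-likelihood test with Benjamini-Hochberg adjustment over 112 miRNAs). The normalised levels overlapped between the groups. The call changed when the totals without let-7-5p were used for scaling, with a log2 fold change of 1.93 and an adjusted p of 0.0145, with the name prefix as a factor, with 2.17 and 0.00194, and with the replicate block in the 4 compared libraries, with 1.06 and 1.59e-08. Over the no-target control, let-7-5p was higher by a log2 fold change of 8.72 in changed specificity (adjusted p = 5.26e-10) and of 7.72 in lin-41 (adjusted p = 3.18e-09) in the same edgeR fit, where 24 of 112 miRNAs (21.4%) and 20 (17.9%) passed the threshold against the same 3 controls.

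Counted against the rest of its own library, let-7-5p had 19.4 and 8.09 reads per read of any other miRNA in changed specificity. The corresponding numbers were 5.26 and 1.96 in lin-41 and 2.87 in gfp::lin-41. The groups did not overlap, and the mean log2 ratio was 1.97 higher in changed specificity (exact two-sided permutation test, p = 0.333) and 3.31 higher within prefix PD3. The separation depended on miR-72-5p. When miR-72-5p was left out of the denominator, a choice made after its share in lin-41 had been seen, the ratios became 21.1 and 8.62 in changed specificity, 17.8 and 6.40 in lin-41 and 12.5 in gfp::lin-41. On that scale the groups overlapped, and the mean log2 ratios differed by 0.34 (exact two-sided permutation test, p = 0.667). The difference was -0.31 without changed specificity replicate 1 and -0.40 without lin-41 replicate 2, but 0.98 without changed specificity replicate 2, 1.07 without lin-41 replicate 1 and 1.72 within prefix PD3. In unedited gld-1 there were 0.0294 and 0.0254 reads of let-7-5p per other read, and in the control between 0.0367 and 0.0702.

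**Figure D2:**
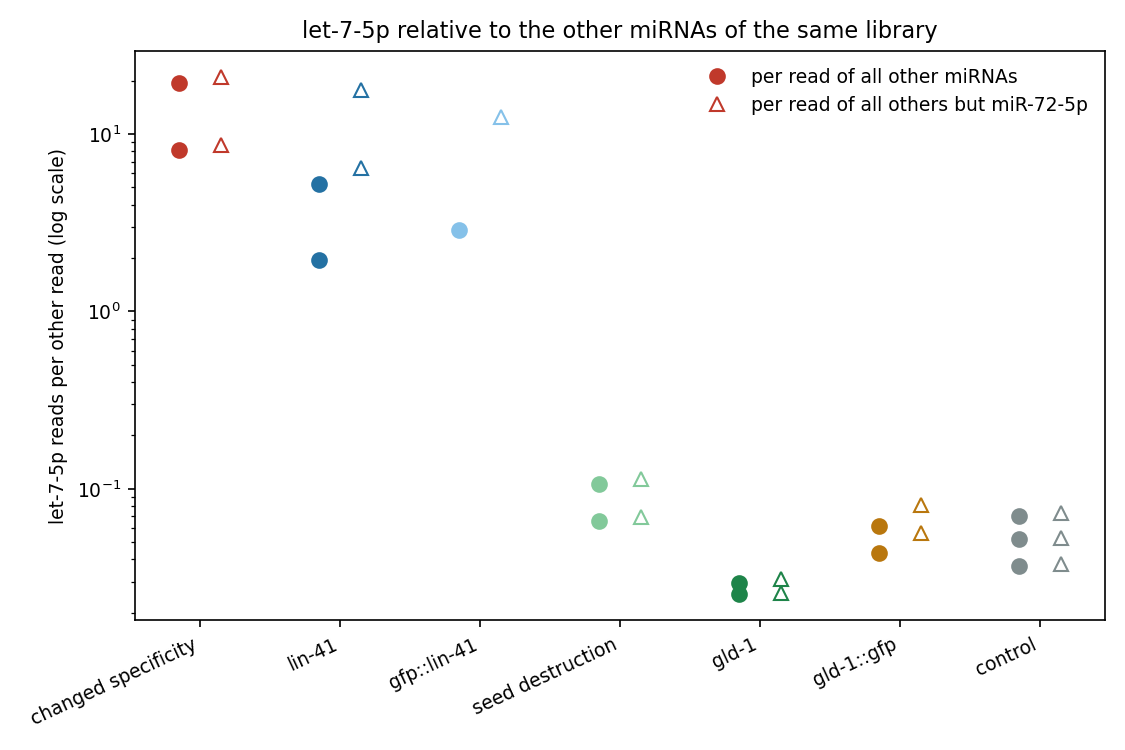
Reads of let-7-5p per read of the other miRNAs in the same library (y axis, log scale) by group (x axis), each point being a library; filled circles count all other miRNAs and open triangles leave out miR-72-5p as well. The circles of changed specificity (19.4 and 8.09) lie above those of lin-41 (5.26 and 1.96), whereas the triangles of both groups interleave, with 21.1 and 8.62 against 17.8 and 6.40.

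The family members that share the seed of let-7-5p had far fewer reads than let-7-5p in both groups. By mean share without let-7-5p, miR-48-5p was still among the 8 largest in both groups, and miR-241-5p in lin-41. Without let-7-5p, miR-48-5p took 4.16% and 3.06% of the reads in changed specificity and 1.78% and 0.931% in lin-41. miR-84-5p, the miRNA of the unedited gld-1 site, had 385 and 594 reads in changed specificity and 663 and 455 in lin-41, against 67538 and 175840 in unedited gld-1. Between changed specificity and lin-41, miR-84-5p missed the threshold, with a log2 fold change of -0.76 (SE 0.64, 95% interval -2.08 to 0.55, edgeR adjusted p = 0.455). Its normalised levels were lower in both changed specificity libraries than in both lin-41 libraries. Against the control, miR-84-5p gave a log2 fold change of 0.19 in changed specificity (edgeR adjusted p = 0.802) and of 0.95 in lin-41 (edgeR adjusted p = 0.284). The gene mir-84 lies on chromosome X from 16022404 to 16022478 on the minus strand.

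miR-48-5p had 2465 and 2843 reads in changed specificity and 3010 and 514 in lin-41, and its log2 fold change was 0.49 (SE 0.60, edgeR adjusted p = 0.606). It passed the threshold with the name prefix as a factor (1.41, edgeR adjusted p = 0.0378) and changed sign with library totals only (-0.15). miR-241-5p, encoded next to mir-48 on chromosome V, had 645 and 555 reads in changed specificity and 1833 and 926 in lin-41. Its normalised levels were lower on the engineered transcript without overlap, at a log2 fold change of -1.57, but missed the threshold (SE 0.61, edgeR adjusted p = 0.0927). Against the control it was higher in lin-41 (log2 fold change 1.73, edgeR adjusted p = 0.0229), whereas changed specificity gave 0.16 (edgeR adjusted p = 0.818). In the direct comparison of changed specificity and lin-41, miR-241-5p passed the threshold with library totals as the only scaling, with upper-quartile factors and with the name prefix as a factor, where its log2 fold changes were -2.64, -1.81 and -1.51.

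Relative to these family members, let-7-5p was higher on both transcripts than in unedited gld-1, seed destruction or the control. Relative to miR-84-5p, let-7-5p had a log2 ratio of 11.54 and 10.31 in changed specificity and 10.38 and 7.89 in lin-41. Unedited gld-1, which carries the miR-84 site, had -3.70 and -4.12, but seed destruction had 6.30 and 5.11 and the control 2.04 to 4.01. Changed specificity and lin-41 overlapped (difference of means 1.79, exact two-sided permutation test, p = 0.667; 3.65 within prefix PD3). The log2 ratio to miR-48-5p also overlapped, with 8.87 and 8.05 against 8.20 and 7.72 (difference 0.50, exact p = 0.667; 1.15 within prefix PD3). Only the log2 ratio to miR-241-5p separated the groups among these 3, with 10.80 and 10.40 against 8.92 and 6.87 (difference 2.71, exact p = 0.333). In the control, the log2 ratios to miR-48-5p and miR-241-5p were 0.63 to 1.39 and 1.64 to 2.80. Seed destruction had 1.46 and 1.55 to miR-48-5p and 3.65 and 3.38 to miR-241-5p. In all, 6 quantities of this kind were compared, including the share and both ratios to the rest of the library, and none could reach 0.05 with 2 libraries a group. The passenger arm let-7-3p had at most 1 read in these 4 libraries. Of the 7 miRNAs of the let-7 family, 6 were tested and 0 passed the threshold in either direction in the edgeR comparison, beside 16.1% of all tested miRNAs. However, miR-241-5p, let-7-5p and miR-48-5p passed it under the alternatives given above.

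Beyond the let-7 family, the changed specificity and lin-41 pulldowns differed in the miRNAs that they held. Transcript, probes and strain cannot be told apart in these differences. Of 112 miRNAs, 18 (16.1%) passed an adjusted p of 0.05 between changed specificity and lin-41 in the edgeR quasi-likelihood fit, 8 (7.14%) being higher and 10 (8.93%) lower on the engineered transcript. The median log2 fold change over all tested miRNAs was -0.16. Normalised levels did not overlap between the groups for 31 miRNAs that were higher and 38 that were lower, together 61.6% of those tested. The direction of the split depended on the scaling, since library totals alone gave 4 higher and 12 lower, and totals without let-7-5p gave 11 higher and 4 lower. Leaving out each of the 4 libraries in turn kept 7 of the 18 calls throughout, namely miR-70-5p, miR-253-3p, miR-250-5p, miR-65-5p, miR-259-5p, miR-51-3p and miR-72-5p, and 10 were lost at least once. miR-784-5p kept its call in the 2 fits where it passed the filter on low counts, and it was not tested without either lin-41 library. The number higher was 5 without changed specificity replicate 2, and the number lower was 4 without changed specificity replicate 1 and 6 without lin-41 replicate 2.

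**Figure D3:**
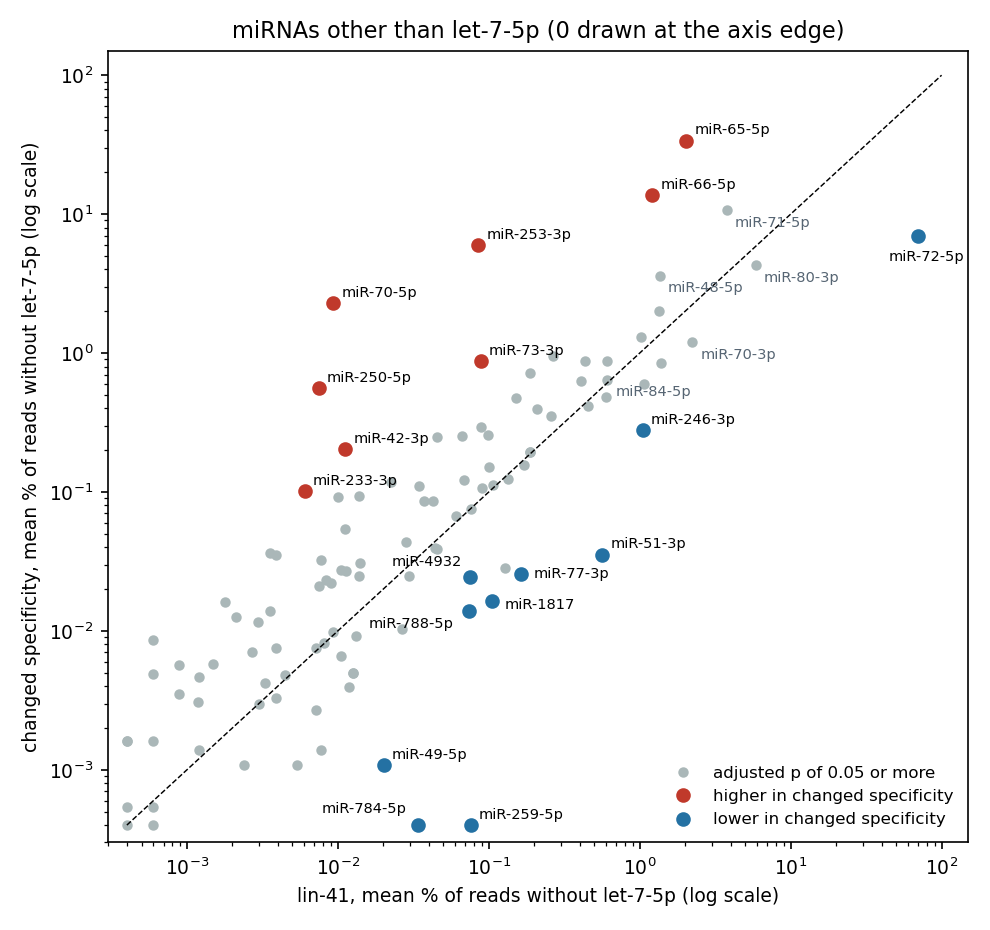
Mean percentage of the reads without let-7-5p in changed specificity (y axis, log scale) against lin-41 (x axis, log scale), a point for each of the other 111 tested miRNAs, with those that passed the edgeR threshold in red (higher in changed specificity) or blue (lower) and a mean of 0 or below the axis drawn at its edge. miR-72-5p lies far to the right at 69.9% of lin-41 against 6.97% of changed specificity, and miR-65-5p at the top with 33.9% against 2.04%.

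The largest difference in read number concerned miR-72-5p, a member of a small seed family with miR-73-3p and miR-74-3p. It had 118870 and 38277 reads in lin-41 and 4622 and 5714 in changed specificity. Every lin-41 library was far above both changed specificity libraries, and the single gfp::lin-41 library had 414827 reads. The normalised level was lower in changed specificity by a log2 fold change of -4.21 (SE 0.65, edgeR adjusted p = 2.88e-05), and it was -3.92 within prefix PD3. All alternatives that left it in the table kept this call, with log2 fold changes from -5.04 to -3.33. mir-72 lies on chromosome II from 2452838 to 2452936 on the plus strand, outside protein-coding genes.

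Once let-7-5p was left out, miR-72-5p alone took 70.5% (Wilson interval 70.3 to 70.7%) and 69.4% (69.0 to 69.7%) of the lin-41 reads, and 77.1% of gfp::lin-41. In changed specificity it took 7.80% (7.59 to 8.02%) and 6.14%. The level in changed specificity was close to that in unedited gld-1 (5.11% and 2.23%) and seed destruction (6.35% and 5.58%), and the control had 1.47% to 4.49%. Against the control, miR-72-5p was higher by a log2 fold change of 6.33 in lin-41 (edgeR adjusted p = 4.39e-09) and of 2.12 in changed specificity (edgeR adjusted p = 0.00326). The gld-1::gfp transgene, retrieved with gfp probes, was in between, with 22.0% and 24.3%. There, miR-84-5p held 69.2% and 66.2% of the reads without let-7-5p, and with both miRNAs left out miR-72-5p rose to 71.3% and 71.9% of the remainder.

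The other reads of lin-41 were spread thinly. After miR-72-5p came miR-80-3p, of the bantam-like miR-58 family, with 6.39% and 5.33%, and miR-71-5p, a miRNA with roles in stress and lifespan, with 2.73% and 4.79%. The same 3 miRNAs led gfp::lin-41. miR-80-3p had 10776 and 2941 reads in lin-41 and 2343 and 4332 in changed specificity, and its log2 fold change of -1.34 (SE 0.66) missed the threshold (edgeR adjusted p = 0.201). It passed when only the 4 compared libraries were fitted (-1.35, edgeR adjusted p = 0.021) and with the name prefix as a factor (-1.26, edgeR adjusted p = 0.0439). For miR-71-5p, the log2 fold change was 0.65 (SE 0.59, edgeR adjusted p = 0.465), from 6789 and 9196 reads in changed specificity and 4598 and 2645 in lin-41, and it turned to -0.32 with library totals alone. Both transcripts held more miR-71-5p than the control (log2 fold changes 2.37 and 1.72, edgeR adjusted p = 0.00185 and 0.0209).

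Without let-7-5p, changed specificity was led by miR-65-5p and miR-66-5p, encoded side by side with mir-64 and mir-229 in an intron of gcn-1 on chromosome III. miR-65-5p had 16827 and 36551 reads in changed specificity and 4016 and 935 in lin-41. Both changed specificity libraries were above both lin-41 libraries, and the log2 fold change was 3.15 (SE 0.68, edgeR adjusted p = 0.00139; 3.30 within prefix PD3). It took 28.4% and 39.3% of the reads without let-7-5p in changed specificity, against 2.38% and 1.69% in lin-41, while unedited gld-1 had 20.97% and 38.0% and seed destruction 32.7% and 38.5%. mir-65 spans 2173002 to 2173101 on the plus strand.

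miR-66-5p had 8586 and 11994 reads in changed specificity and 1902 and 716 in lin-41, with no overlap. Its log2 fold change was 2.62 (SE 0.62, edgeR adjusted p = 0.00319). The call was lost without changed specificity replicate 1 (adjusted p = 0.0545) and without replicate 2 (0.0567). miR-64-5p of the same cluster gave no detectable difference, with 1047 and 2087 reads against 3424 and 368 and a log2 fold change of -0.36 (SE 0.83, edgeR adjusted p = 0.785) whose sign changed with scaling, from 0.57 with totals without let-7-5p. miR-64-5p and miR-65-5p are near-identical, and reads may be shared between them, so their separate counts are uncertain. Of the 5 tested members of the miR-64 seed family, 2 were higher and 0 lower, beside 7.14% and 8.93% of all tested miRNAs. Together the 5 members took 45.5% and 55.2% of the reads without let-7-5p in changed specificity against 5.79% and 3.94% in lin-41.

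A further difference was found for miR-70, where the arms of a single hairpin behaved differently. miR-70-5p had 1208 and 2343 reads in changed specificity and 4 and 9 in lin-41. It was also high in the other libraries made with gld-1 probes, with 4612 and 4146 reads in unedited gld-1 and 1987 and 3025 in seed destruction, and had at most 23 reads in any library made with other probes. Its log2 fold change between changed specificity and lin-41 was 7.30 (SE 1.09, edgeR adjusted p = 3.21e-05). miR-70-3p, from the other arm, had 611 and 1278 reads in changed specificity and 2932 and 1505 in lin-41, with a log2 fold change of -1.75 (SE 0.68, edgeR adjusted p = 0.0927). miR-70-3p passed the threshold in 4 edgeR alternatives, with library totals only (-2.57, adjusted p = 0.0458), with only the 4 compared libraries (-1.85, 0.0141), with the replicate block in those libraries (-1.78, 0.0352) and with the name prefix as a factor (-2.04, 0.00103). The 5′ arm made up 66.4% and 64.7% of miR-70 reads in changed specificity and 0.136% and 0.594% in lin-41. mir-70 lies in an intron of pmp-5 on chromosome V from 6665536 to 6665635 on the minus strand.

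Among the miRNAs higher on the engineered transcript, miR-253-3p stood apart because it was low in all other gld-1 pulldowns. It had 5437 and 2566 reads in changed specificity, 178 and 36 in lin-41, 54 and 70 in unedited gld-1, 290 and 95 in seed destruction and 22 to 25 in the control. Both changed specificity libraries exceeded all of these, and miR-253-3p took 9.18% and 2.76% of their reads without let-7-5p. Its log2 fold change was 5.21 against lin-41 (SE 0.83, edgeR adjusted p = 3.21e-05; 6.34 within prefix PD3). Against unedited gld-1 it was 6.24 (SE 0.87, edgeR adjusted p = 5.23e-06). The gene mir-253 lies in an intron of F44E7.5 on chromosome V from 5780510 to 5780616 on the minus strand.

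The remaining miRNAs that were higher in changed specificity were rarer. miR-250-5p had 365 and 470 reads against 19 and 2 in lin-41 (log2 fold change 5.17, SE 0.76, edgeR adjusted p = 2.88e-05), and 724 and 449 in seed destruction. miR-42-3p, of the miR-35 family of germline and embryonic miRNAs, had 96 and 227 reads against 10 and 9, and miR-233-3p, from an intron of W03G11.4, had 59 and 95 against 5 and 5. miR-73-3p, of the same seed family as miR-72-5p, went in the opposite direction to it, with 710 and 518 reads against 154 and 47. In each case both changed specificity libraries were above both lin-41 libraries in normalised level. The log2 fold changes were 3.43 for miR-42-3p, 3.35 for miR-233-3p and 2.42 for miR-73-3p, each with an edgeR adjusted p of 0.00803. The calls of miR-42-3p and miR-233-3p were lost without lin-41 replicate 1 (adjusted p = 0.126 and 0.189) and without changed specificity replicate 2 (0.0936 and 0.0537). The call of miR-73-3p was lost without changed specificity replicate 1 (0.19) and without lin-41 replicate 2 (0.102).

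On the lin-41 side, a pair of miRNAs had reads there and none on the engineered transcript. miR-259-5p had 48 and 68 reads in lin-41, 75 in gfp::lin-41 and 0 and 0 in changed specificity. The mean share of reads without let-7-5p was at least 18.3-fold higher in lin-41, with the floor set at 3 reads per changed specificity library (edgeR adjusted p = 0.000371). miR-784-5p had 41 and 24 reads in lin-41 and 0 and 0 in changed specificity, at least 8.18-fold higher on the same floor, but just 3 reads in gfp::lin-41. It passed the filter on low counts only through the lin-41 libraries, so its difference is a description with no test, although it is counted among the 18. Both were nearly absent elsewhere in the gld-1-probe pulldowns, with at most 3 reads in unedited gld-1 and seed destruction.

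miR-51-3p had 744 and 379 reads in lin-41, 796 in gfp::lin-41 and 26 and 25 in changed specificity, a log2 fold change of -4.86 (SE 0.74, edgeR adjusted p = 2.88e-05). It was not particular to lin-41, since the alg-1 pulldowns had 1832 and 1468 reads. These were 1.44% and 1.45% of the reads without let-7-5p, against 0.441% and 0.687% in lin-41. Its partner arm miR-51-5p did not follow, with 99 and 15 reads in lin-41, 71 and 50 in changed specificity and a log2 fold change of 0.06 (edgeR adjusted p = 0.984). miR-246-3p, known to rise with age in C. elegans, had 1550 and 647 reads in lin-41 and 212 and 186 in changed specificity (log2 fold change -2.78, SE 0.67, edgeR adjusted p = 0.0035). Its call was lost without changed specificity replicate 1 (adjusted p = 0.0728) and without replicate 2 (0.122). Against the control both transcripts held more of it, with log2 fold changes of 4.60 in lin-41 and 1.82 in changed specificity (edgeR adjusted p = 2.57e-06 and 0.025). In lin-41 both libraries were above both changed specificity libraries for each of these miRNAs except miR-51-5p.

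The other 5 lower miRNAs were miR-49-5p, miR-1817, miR-77-3p, miR-788-5p and miR-4932, at log2 fold changes of -4.70, -3.50, -3.48, -3.20 and -2.55. For all but miR-49-5p, the edgeR adjusted p-values were 0.00319, 0.0349, 0.00803 and 0.0483 in that order. miR-49-5p had 22 and 15 reads in lin-41, 29 in gfp::lin-41 and at most 8 in any other library. It passed the filter on low counts only through the lin-41 and gfp::lin-41 libraries. Its difference is therefore a description with no test, although it is counted among the 18. None of the 5 had more than 154 reads in a lin-41 library or more than 29 in a changed specificity library. All 5 calls were lost without changed specificity replicate 1, and those of miR-49-5p and miR-77-3p also without changed specificity replicate 2 and without lin-41 replicate 2. Over the 4 fits that each left out a library, log2 fold changes ran from -8.19 to -3.89 for miR-49-5p and from -4.02 to -3.10 for miR-1817. They ran from -4.10 to -2.80 for miR-77-3p and from -4.89 to -2.46 for miR-788-5p. miR-4932 lost its call in each of these 4 fits (adjusted p = 0.0768 to 0.283) and under 7 other alternatives. miR-788-5p had 89 and 52 reads in lin-41 and 2613 in gfp::lin-41. Against the control, miR-1817 and miR-77-3p were not past the threshold in lin-41 (log2 fold changes 0.93 and 1.11, edgeR adjusted p = 0.391 and 0.454). miR-788-5p and miR-4932 were past it (3.98 and 10.1, edgeR adjusted p = 0.000578 and 3.4e-06), with 0 reads of miR-4932 in the control. In changed specificity, miR-1817 was below the control (-2.57, edgeR adjusted p = 0.0166).

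**Figure D4:**
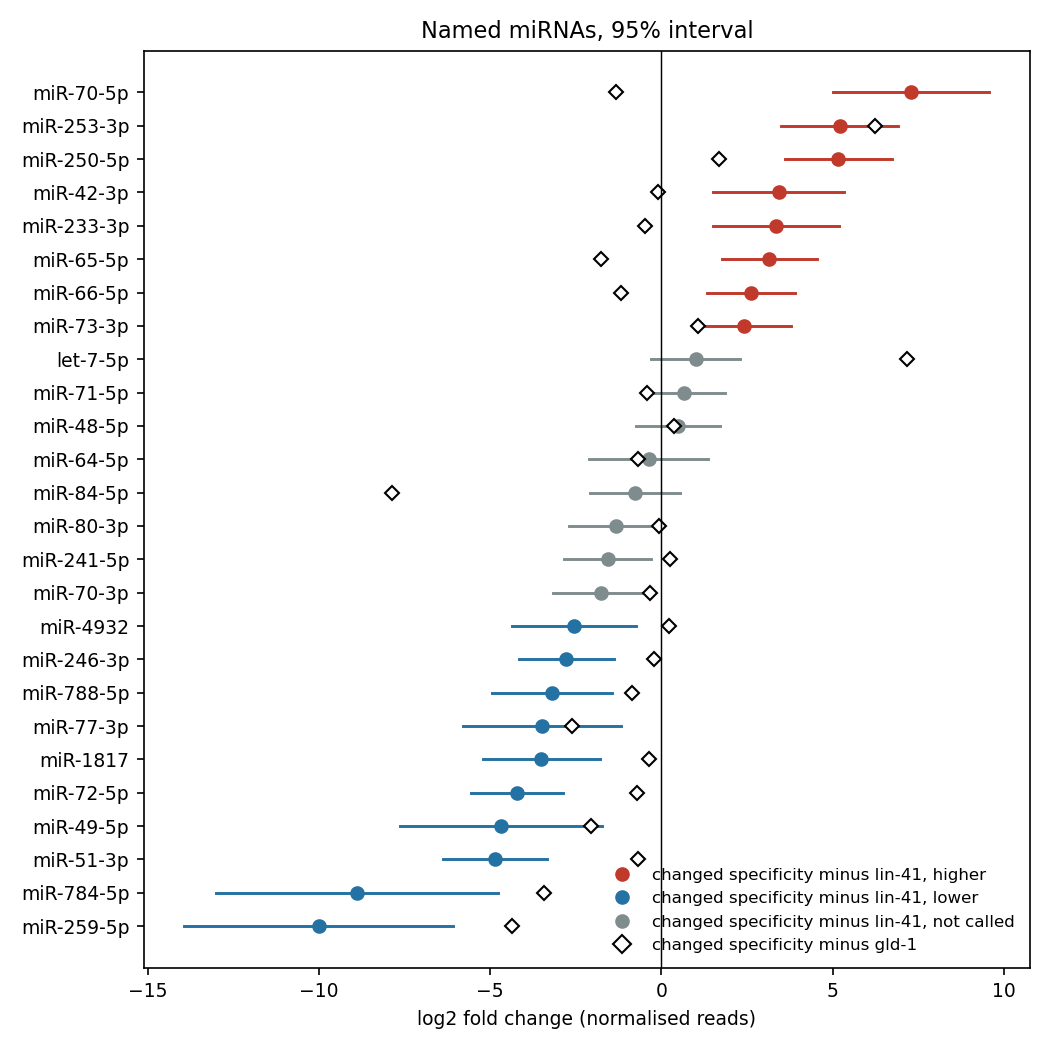
log2 fold change of changed specificity minus lin-41 (x axis) for the 26 named miRNAs, circles with 95% intervals coloured red (higher), blue (lower) or grey (not past the threshold); open diamonds show changed specificity minus unedited gld-1 for the same miRNAs. The diamonds of let-7-5p (7.17), miR-253-3p (6.24) and miR-84-5p (-7.88) passed the threshold, and no other diamond did.

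Changed specificity was also set against the unedited gld-1 transcript, which was retrieved with the same probes. In changed specificity against unedited gld-1, 3 of 112 miRNAs (2.68%) passed the edgeR threshold, with 9 at an unadjusted p under 0.05. These were let-7-5p (log2 fold change 7.17, adjusted p = 1.97e-07), miR-253-3p and miR-84-5p (log2 fold change -7.88, adjusted p = 1.35e-07). Of the 18 miRNAs that differed from lin-41, the other 17 after miR-253-3p were not past the threshold there, in a comparison that uses the same changed specificity libraries. Since only 2.68% of all tested miRNAs passed it, this count says little about the 18. For miR-72-5p the log2 fold change from unedited gld-1 was -0.72 (95% interval -1.90 to 0.46) and for miR-65-5p it was -1.78 (95% interval -3.10 to -0.45, adjusted p = 0.235). With library totals as the only scaling, the number of calls against unedited gld-1 was 33.

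When the unedited and the seed-destroyed gld-1 transcripts were themselves set against the same lin-41 libraries, 17 of 112 miRNAs (15.2%) and 16 (14.3%) passed the edgeR threshold. The values for the leading miRNAs lay side by side with those of changed specificity, with the lin-41 libraries shared by all 3 comparisons. For miR-72-5p the log2 fold changes were -3.49 for unedited gld-1, -4.43 for seed destruction and -4.21 for changed specificity. For miR-65-5p they were 4.93, 3.22 and 3.15. For miR-70-5p, they were 8.61, 7.39 and 7.30. miR-250-5p had 3.47 for unedited gld-1 and 5.17 for both edited transcripts. miR-253-3p was the exception, with -1.03 for unedited gld-1 and 0.18 for seed destruction, neither past the threshold (edgeR adjusted p = 0.397 and 0.971), against 5.21 for changed specificity.

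Whole libraries were compared as well. The percentage of composition shared by a pair of libraries was taken as the sum over miRNAs of the smaller of both shares. With let-7-5p included, changed specificity shared 69.4% to 88.0% with lin-41 and 6.93% to 13.6% with unedited gld-1. Without let-7-5p, changed specificity shared 30.3% to 31.4% with lin-41, 46.7% to 59.0% with unedited gld-1 and 76.8% to 90.8% with seed destruction, while its own replicates shared 84.5%. The lin-41 replicates shared 93.3% with each other, and 87.9% and 88.1% with gfp::lin-41. When miR-84-5p was left out as well, changed specificity shared 59.8% to 81.2% with unedited gld-1. On that scale lin-41 shared 84.9% to 89.1% with gld-1::gfp but 19.6% to 29.9% with unedited gld-1 retrieved by gld-1 probes.

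**Figure D5:**
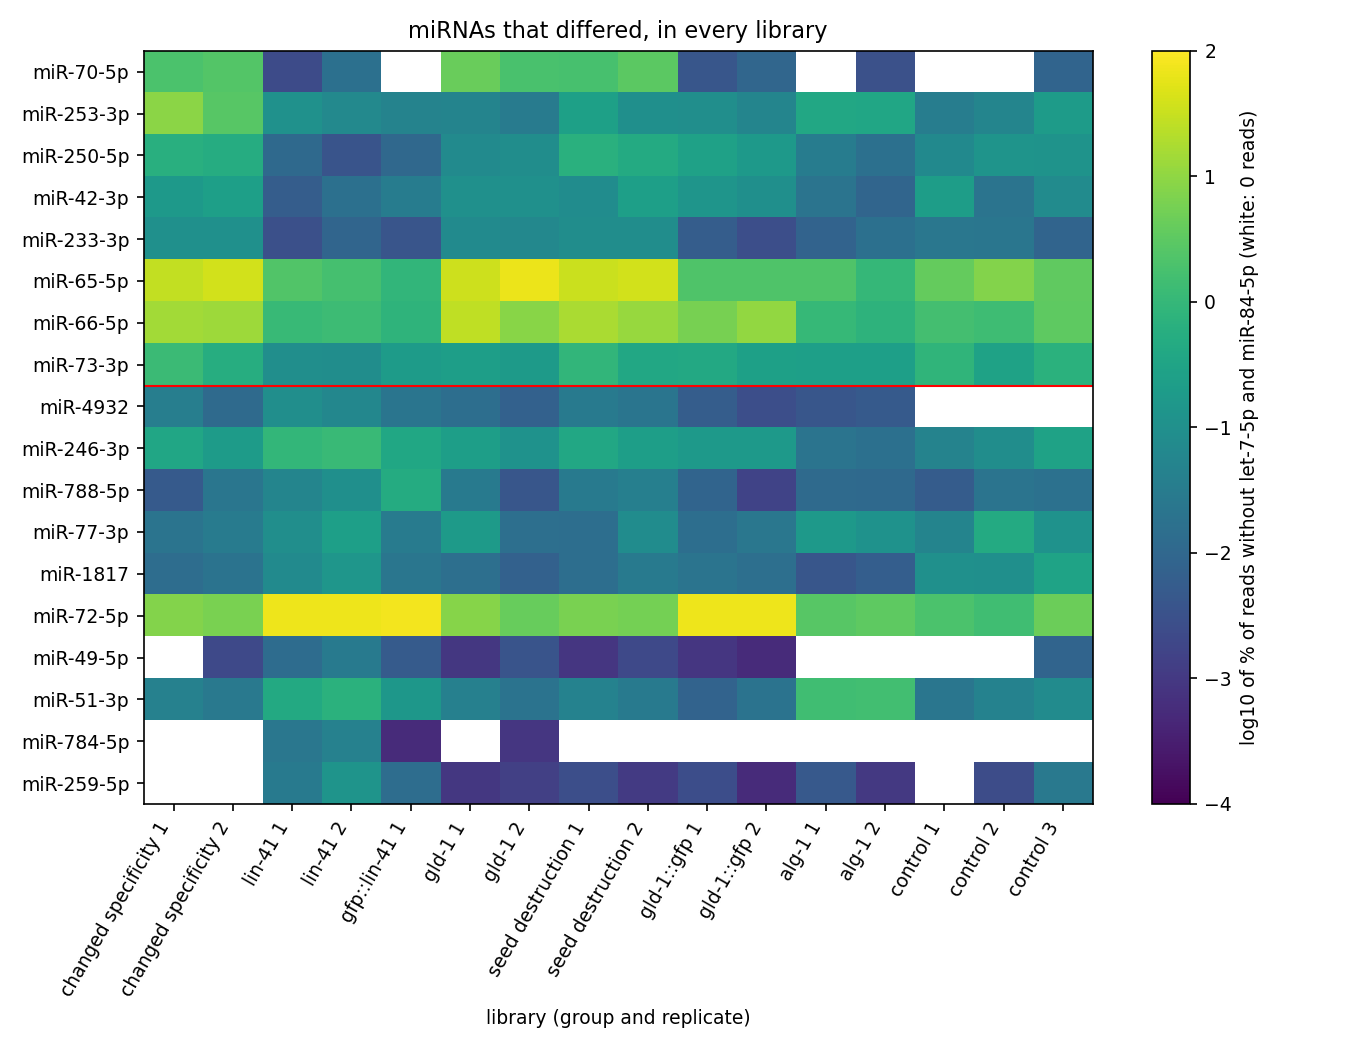
Share of reads without let-7-5p and miR-84-5p (colour, log10 of the percentage, white for 0 reads) of the 18 miRNAs that passed the threshold (rows, ordered by log2 fold change, higher above the red line) in all 16 libraries (columns). miR-65-5p and miR-70-5p are high in the 6 libraries made with gld-1 probes, and miR-72-5p is high in lin-41, gfp::lin-41 and gld-1::gfp.

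The gfp-probe libraries allow gld-1 and lin-41 to be set side by side with the probes held equal, although with 1 gfp::lin-41 library there is no test. In shares without let-7-5p and miR-84-5p, 7 of the 8 miRNAs higher in changed specificity were higher in both gld-1::gfp libraries than in gfp::lin-41, and all 10 lower ones were lower in both. Over the 110 tested miRNAs other than let-7-5p and miR-84-5p, 32.7% were higher and 32.7% lower in this way. The 10 lower ones include miR-49-5p and miR-784-5p, which passed the filter on low counts only through lin-41 or gfp::lin-41 libraries. Their direction here therefore adds nothing to the count. Among the 7 higher ones, miR-70-5p rests on 23 and 17 reads in gld-1::gfp and 0 in gfp::lin-41. The sizes were smaller for miR-72-5p and miR-65-5p than between changed specificity and lin-41. miR-72-5p had 71.3% and 71.9% in gld-1::gfp and 77.3% in gfp::lin-41, and miR-65-5p had 2.28% and 2.28% against 0.902%. For miR-66-5p the size was not clearly smaller, with 5.89% and 10.8% against 0.803%. Its shares on the same scale were 14.6% and 13.0% in changed specificity against 1.13% and 1.31% in lin-41.

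Several other families had no member past the threshold. Of the lin-4, miR-51, miR-58, miR-2 and miR-44 seed families, 0 of the 2, 6, 4, 2 and 3 tested members passed the threshold (edgeR), with median log2 fold changes from -0.97 to -0.26 beside -0.16 over all tested miRNAs. Over all tested miRNAs, 18 of 112 (16.1%) passed, so such counts in small sets say little about them. In the miR-44 family, miR-44-3p and miR-45-3p had the same counts in every library. Of the 6 tested miR-35 family members, only miR-42-3p was higher, and miR-35-3p gave a log2 fold change of -1.73 (edgeR adjusted p = 0.269). Markers of other tissues had few reads, in the control as well, so they say little about tissue. The control had 1, 1 and 0 reads of miR-1-3p, 0, 24 and 1 of miR-124-3p and 0 of lsy-6-3p. Muscle miR-1-3p had 3 and 2 reads in changed specificity and 2 and 1 in lin-41, neuronal miR-124-3p had 1 and 1 against 20 and 2, and lsy-6-3p had 0 in all 4 libraries. Of the 18 miRNAs that differed, 16 had another arm listed and 8 of these arms were tested, of which 0 passed the threshold (edgeR) and 2 had the same sign.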

How the data were processed

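The authors trimmed reads with cutadapt 1.14, discarded reads mapping to Escherichia coli with Bowtie2 2.3.3.1 and counted known miRNAs with miRDeep2 and miRBase. The deposited values are raw read counts, not normalised, in 452 rows for 434 mature miRNAs. The largest row was used for the 15 miRNAs with several precursors. Groups came from the sample titles. miRNAs with 10 or more reads in 2 or more libraries were kept (112, holding 99.78% or more of every library). edgeR 4.0.16 in R 4.3.3 was run with TMM factors and 1 robust quasi-likelihood fit of group means over all 16 libraries (common biological coefficient of variation 0.532), and Benjamini-Hochberg adjustment was applied per comparison (threshold 0.05). The factors, which presume that the bulk of miRNAs is unchanged, ranged from 0.155 to 5.31. Ratios used a pseudocount of 1 read. Coordinates are those of WBcel235 (Ensembl 115 annotation, let-7 from RefSeq), in which all 90 precursors of the tested miRNAs were found. The fit was also run on counts simulated from the mean composition of the control, in which let-7-5p is a small share. That run therefore does not check the scaling of libraries dominated by let-7-5p.

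Named miRNAs were let-7-5p, miR-48-5p, miR-84-5p, miR-241-5p and miR-71-5p, all past the threshold between changed specificity and lin-41 (up to 12 in each direction) or between changed specificity and gld-1, and the 8 with the largest mean share without let-7-5p in each group, 26 in all. Members of the lists are named besides. The comparison, lists and rule were chosen with earlier results of these data known. Alternatives were other scalings, filters, DESeq2 1.42.0, summed precursor rows, fewer libraries, the replicate number or the name prefix in the design, and leaving out single replicates. No sequences are shown. The genome build used for counting is not given in the sources used here.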

Additional observations from a re-analysis of the deposited data

How the results depend on the processing

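TMM factors and 2 libraries a group limit what can be said of single miRNAs; lin-41 replicate 2 was the shallowest of the 4 libraries. With library totals as the only scaling (median log2 fold change of all miRNAs -0.84), changed specificity against lin-41 gave 4 higher, and calls numbered 91 against the control (24 with TMM), 33 against gld-1 (3), 85 for lin-41 against the control (20) and 73 for seed destruction against lin-41 (16); miR-48-5p became -0.15 and miR-71-5p -0.32. With totals without let-7-5p (median 0.64), 4 were lower, 11 differed from gld-1, 55 differed between lin-41 and the control, let-7-5p was 1.93 and miR-84-5p 0.084. With the name prefix as a factor, 15 were higher and 18 lower, 12 differed from gld-1, 30 between seed destruction and lin-41, and let-7-5p was 2.17. miR-64-5p reversed to 0.57 (totals without let-7-5p), 0.020 (let-7-5p removed), 0.061 (summed precursors), 0.72 (prefix), 0.64 (within PD3), 0.81 (without lin-41 replicate 1) and 0.079 (without changed specificity replicate 1). Within PD3, log2 ratios of let-7-5p differed by 3.31 (all other reads), 3.65 (miR-84-5p), 1.15 (miR-48-5p) and 1.72 (without miR-72-5p). Leaving out replicates gave 5 to 8 higher and 4 to 8 lower, 12 to 22 calls between changed specificity and the control, 12 to 18 between lin-41 and the control, -1.002 to 0.81 for miR-64-5p, and -0.40 to 1.07 for let-7-5p relative to the reads without miR-72-5p (log2). The cause of these shifts was not tested.

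The replicate block was run although the numbers only name the samples: deviations of same-numbered libraries correlated at 0.13. With 2 libraries a group both pairs must give the same number, so this is a single value and says little about pairing. In all 16 libraries the block left 8 higher and 10 lower; in the 4 compared libraries alone it gave 15 higher and 14 lower, with let-7-5p at 1.06 and past the threshold. The fits without let-7-5p and miR-72-5p, and ratios without miR-72-5p, were chosen after seeing the data.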
